A study of Mus musculus with 20 samples.

Results

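The natriuretic peptide system was described here through 7 genes: the peptide genes Nppa and Nppb, the processing proteases Corin and Furin, and the receptors Npr1, Npr2 and Npr3. All probe sets that the platform annotation linked to these genes were taken, which gave 8 probe sets for 6 of the 7 genes, out of 12488 probe sets in the table and 8251 genes linked to them. No probe set was linked to Npr2, and it was not analysed here. The study measured total RNA from mouse heart ventricle on Affymetrix arrays to examine how tTA, the tetracycline-controlled transactivator, acts in the heart. The 19 arrays used here fell into 4 groups, and single arrays are named below by the number in their titles. The tTA +Doxy group (5 arrays) came from tTA transgenic FVBN mice given Doxy, taken here as doxycycline, the drug that releases tTA from its DNA target. The tTA group (8 arrays) came from tTA mice without Doxy. The FVBN +Doxy group (4 arrays) came from wild-type FVBN mice given Doxy, and the Fvbn control group (2 arrays) from wild-type FVBN mice without it. Keywords in the labels name the alpha MHC promoter, which drives transgenes in heart muscle cells. The labels give no dose or duration of Doxy and no age or sex of the mice. Nor do they say that each array was a separate animal, so p-values measure the spread between these arrays, and the number of arrays limits the precision.

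Atrial natriuretic peptide (from Nppa) and brain natriuretic peptide (from Nppb) are hormones that heart muscle cells make as longer precursors and release when the heart wall is stretched. Corin, a membrane serine protease of heart muscle cells, cleaves the atrial precursor, and furin, a convertase of the secretory pathway, cleaves many precursors including that of brain natriuretic peptide. The peptides act on Npr1, a receptor that makes cGMP and lowers blood pressure and blood volume, while Npr3 mainly takes the peptides up and clears them. In ventricle, Nppa and Nppb belong to the fetal genes that come back under load.

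Nppb and Nppa lie next to each other on mouse chromosome 4, so the stretches before their starts are shown with that of Corin. In RefSeq (GRCm38.p6), Nppb is annotated at chr4:147985786-147987205 and Nppa at chr4:148000722-148002074, with 13516 bases between them, while Corin spans chr5:72299948-72504540. Each line gives the 250 bases before the start used in the RefSeq promoter table, read 5′ to 3′ on the gene's strand. The windows are chr4:148000472-148000721 (plus strand) for Nppa, chr4:147985650-147985899 (plus strand) for Nppb and chr5:72504541-72504790 (minus strand) for Corin. The Nppb window therefore runs well past the annotated start of the gene, and positions in it are counted from the start used for the window. Capitals mark GATAA on either strand, the core letters that GATA factors bind.
Nppa: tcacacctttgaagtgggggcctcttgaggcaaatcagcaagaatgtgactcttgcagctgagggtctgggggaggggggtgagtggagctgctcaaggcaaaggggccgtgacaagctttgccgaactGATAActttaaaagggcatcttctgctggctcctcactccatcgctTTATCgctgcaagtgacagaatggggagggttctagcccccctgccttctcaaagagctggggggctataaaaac
Nppb: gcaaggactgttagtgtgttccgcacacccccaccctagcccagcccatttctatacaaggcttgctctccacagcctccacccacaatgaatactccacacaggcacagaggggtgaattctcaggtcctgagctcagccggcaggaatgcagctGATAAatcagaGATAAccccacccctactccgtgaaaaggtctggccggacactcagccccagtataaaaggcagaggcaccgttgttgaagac
Corin: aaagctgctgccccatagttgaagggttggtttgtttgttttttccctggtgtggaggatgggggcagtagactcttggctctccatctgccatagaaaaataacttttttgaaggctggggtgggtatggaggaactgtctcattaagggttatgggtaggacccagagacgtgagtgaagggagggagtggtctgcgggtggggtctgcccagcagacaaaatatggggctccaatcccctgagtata
GATAA occurred 2 times in the Nppa window, 121 to 117 bases before the start and, on the other strand, 75 to 71 bases before it. It occurred 2 times in the Nppb window, 94 to 90 and 83 to 79 bases before the start, and 0 times in the Corin window. Of 32851 mouse windows of the same length, 22.6% held GATAA on either strand. CATTCC, the letters of the MCAT element that TEAD factors bind, was found 1 time, in the Nppb window, and 12.6% of all windows held it. TATAAA was found 1 time in the Nppa window and 1 time in the Nppb window, in 12.4% of all windows, and GGTGTG, the core of the T-box element, 1 time in each of the 3 windows and in 16.3% of all windows.

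Each value below is a probe-set intensity after quantile normalization of the 19 arrays, on a linear scale. Such an intensity compares arrays for 1 probe set and does not rank different genes. A probe set was tested when its mean intensity was in the brightest 60%, above 44.4, which 7453 probe sets were, and a difference was called at a Benjamini-Hochberg adjusted p below 0.05 over these. Of the 8 members, 4 were tested, 1 each for Nppb, Nppa, Corin and Furin. The other 4, of Npr1 and Npr3, were too dim. Arrays of 1 group correlated with r between 0.985 and 0.997, and no pair of arrays was identical. Summed markers of ventricular muscle cells (7 genes on the array) ranged from 26090 to 29140 in tTA +Doxy, 25070 to 28910 in tTA, 27190 to 29070 in FVBN +Doxy and 27000 to 29510 in Fvbn control. The sums for atrial muscle cells (9 genes) were 382.2 to 426.5, 384.8 to 431.5, 404.2 to 410.1 and 406.5 to 432.6 in the same order of groups, and no atrial marker was at the floor on all arrays. The log2 ratio of 3′ to 5′ beta-actin probe sets is used as a sign of RNA quality. It was 0.270 to 0.419 in tTA +Doxy and 0.145 to 0.445 in tTA. In FVBN +Doxy it was 0.407 to 0.6 and in Fvbn control 0.543 to 0.555, and so was lower on average in the tTA groups. The same ratio for Gapdh was -0.0141 to 0.1051, -0.1165 to 0.1276, 0.0024 to 0.1226 and -0.0403 to 0.0563 in this order, with all groups overlapping.

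Corin, the protease of the atrial precursor, was lower in tTA ventricle with and without Doxy. Its intensities were 129.2, 103.3, 134.3, 120.4 and 123.2 on the tTA +Doxy arrays. On the 8 tTA arrays the lowest was 98.4, the median 105.5 and the highest 121.2. On the FVBN +Doxy arrays they were 144.4, 180.3, 180.6 and 139.5, and on the Fvbn control arrays 203.9 and 164.7. All 13 tTA arrays, with or without Doxy, lay at or below 134.3, and all 6 wild-type arrays at or above 139.5, so the genotypes did not overlap. The share of all probe sets whose groups do not overlap was not counted, here or for the genes below. The Corin means were 122.1 ± 11.8 in tTA +Doxy, 106.6 ± 7.70 in tTA, 161.2 ± 22.3 in FVBN +Doxy and 184.3 ± 27.7 in Fvbn control (SD, n = 5, 8, 4 and 2). Corin (probe set 103289_at) fell by 0.79 ± 0.10 on the log2 scale in tTA against Fvbn control (SE, 1.72-fold lower, limma adjusted p = 0.000173, lower on 8 of 8 tTA arrays). It was the 1 member of 4 tested that was called in this comparison, where 2.82% of the 7453 probe sets were called and 1.82% were called lower, as 74 higher and 136 lower probe sets. With arrays scaled to 1 median the split was 46 higher and 221 lower, and without further normalization 69 higher and 207 lower. Under Doxy, tTA against FVBN, it fell by 0.40 ± 0.09 (SE, 1.32-fold lower, adjusted p = 0.0111, lower on 5 of 5 tTA +Doxy arrays). Here 2 of the 4 tested members were called, Corin and Nppb, both lower, beside 5.9% of all probe sets in either direction and 1.6% in the lower direction.

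Within a genotype, Corin did not pass the test for Doxy. The log2 difference was 0.19 ± 0.08 between tTA +Doxy and tTA (SE, unadjusted p = 0.0184, adjusted p = 0.543, 95% interval 0.04 to 0.35), and the 2 groups overlapped. Between FVBN +Doxy and Fvbn control it was -0.20 ± 0.11 (adjusted p = 0.498, interval -0.43 to 0.04). The genotype difference was 0.39 ± 0.14 smaller in size with Doxy than without (unadjusted p = 0.0101, adjusted p = 0.251), which is not a called difference. The order of the means, from lowest to highest, was tTA, tTA +Doxy, FVBN +Doxy and Fvbn control, and the only neighbours in that order with a called difference were tTA +Doxy and FVBN +Doxy. The tTA and Fvbn control comparison held in each of 30 alternative settings, with adjusted p from 6.13e-05 to 0.0312. The Doxy comparison held in 29 of 30 and was lost when the fit held the beta-actin ratio as a covariate, where the log2 difference was -0.26 (adjusted p = 0.0893).

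Some markers of other cells differed with genotype, but most were not called. Not called in tTA against Fvbn control were 5 of 7 smooth muscle and pericyte and 9 of 10 endothelial markers tested. The same held for 9 of 9 fibroblast and 5 of 5 macrophage markers. Under Doxy the counts in this order were 5 of 7, 10 of 10, 8 of 9 and 4 of 5. Of all tested probe sets, 2.82% and 5.9% were called in these comparisons. Averaged over both genotype comparisons, 4 of 7, 8 of 10, 8 of 9 and 3 of 5 were not called in this order. Of all tested probe sets, 9.04% were called in that average. The averaged log2 difference was above 0 for 2 of 7, 0 of 10, 1 of 9 and 0 of 5 of these markers. Summed smooth muscle and pericyte markers (8 genes on the array, 7 tested) were 898.9 to 1133 in tTA +Doxy, 855.5 to 1038 in tTA, 1077 to 1223 in FVBN +Doxy and 1257 to 1338 in Fvbn control. Acta2, smooth muscle actin, was lower in tTA against Fvbn control (log2 difference -1.27, adjusted p = 0.00152) and under Doxy (-0.66, adjusted p = 0.0276). Abcc9, a channel subunit of pericytes and muscle, was lower in the first of these comparisons (-0.66, adjusted p = 0.0132), and Smtn was higher under Doxy. Summed endothelial markers (10 genes) were 2076 to 2273, 2194 to 2377, 2155 to 2516 and 2440 to 2510 in the same order of groups, with Emcn lower in tTA against Fvbn control (-0.28, adjusted p = 0.027). Summed fibroblast markers (9 genes) were 3455 to 3804, 3328 to 4662, 3747 to 4059 and 3930 to 3967, with Fbln1 lower in tTA under Doxy, and summed macrophage markers (6 genes) 587.3 to 659.6, 574 to 645.7, 658 to 723.8 and 630.4 to 675.1, with Cd14 lower in tTA under Doxy. Among the 7 ventricular muscle markers tested, Ryr2, the calcium release channel, was lower in tTA against Fvbn control (-0.82, adjusted p = 5.88e-05) and under Doxy (-0.58, adjusted p = 0.000524), and the other 6 did not pass. No marker of these lists was at the floor on all arrays. The part of these markers and of the beta-actin ratio in the Corin result was not tested, beyond the covariate value above. In whole tissue, fewer cells of a type and less RNA per cell cannot be told apart.

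**Figure D1:**
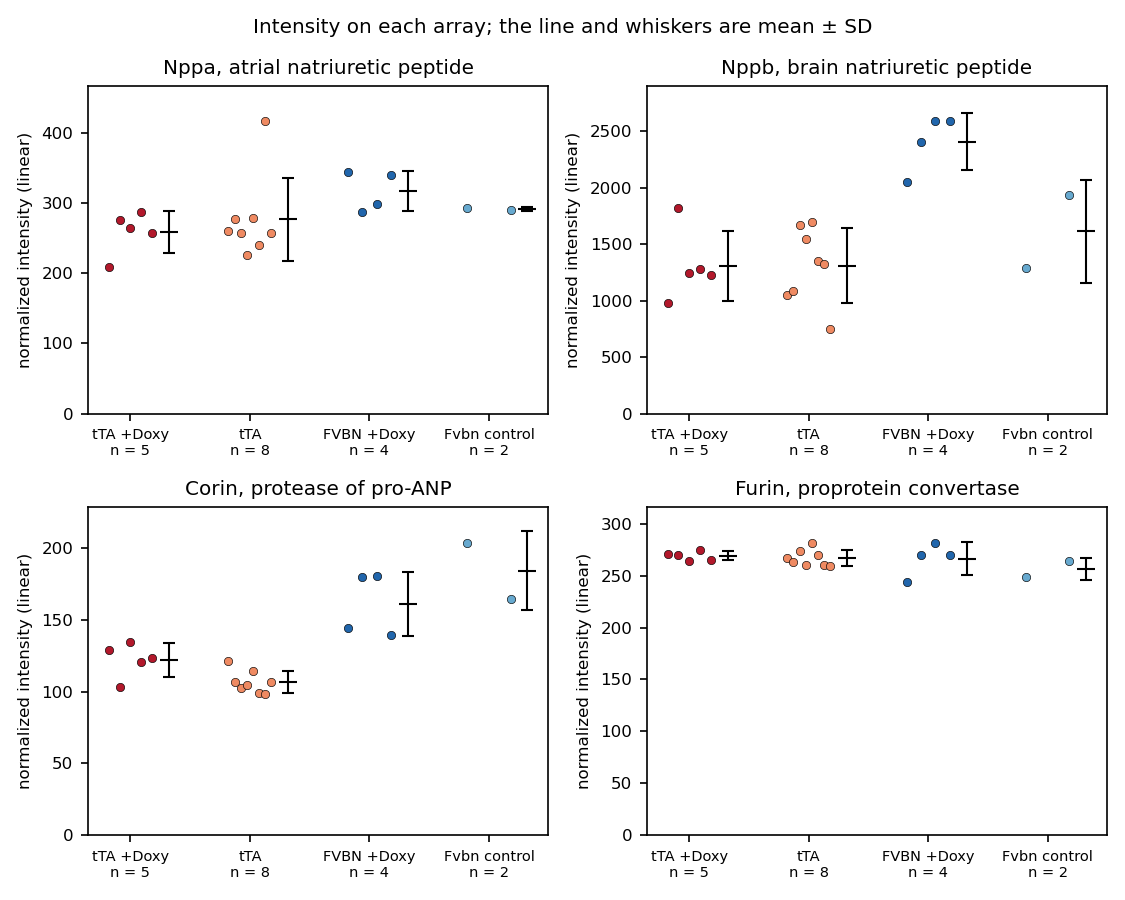
Normalized intensity (linear axis from 0) of Nppa, Nppb, Corin and Furin on each of the 19 arrays, as points by group, with the mean ± SD beside them. The 4 FVBN +Doxy arrays stand above the other groups for Nppb, and all tTA arrays lie below all wild-type arrays for Corin.

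Nppb, the brain natriuretic peptide gene, was lower in tTA +Doxy than in FVBN +Doxy ventricle. Its intensities were 976.5, 1820, 1242, 1276 and 1226 on the tTA +Doxy arrays, against 2051, 2401, 2590 and 2590 on the FVBN +Doxy arrays (the last 2 held the same rank and so the same value after quantile normalization). The highest tTA +Doxy array lay below the lowest FVBN +Doxy array. The 8 tTA arrays ran from 748.2 through a median of 1336 to 1693, against 1292 and 1936 on the Fvbn control arrays, so these groups overlapped. The means were 1308 ± 309.8 in tTA +Doxy, 1308 ± 331.9 in tTA, 2408 ± 254.1 in FVBN +Doxy and 1614 ± 455.4 in Fvbn control (SD), so FVBN +Doxy was highest and Fvbn control next, and the means of both tTA groups lay below them.

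Under Doxy, Nppb (probe set 104184_at) fell by 0.90 ± 0.23 on the log2 scale in tTA (SE, 1.87-fold lower, limma adjusted p = 0.0274, lower on 5 of 5 arrays). Without Doxy the log2 difference was -0.32 ± 0.27 (adjusted p = 0.591, interval -0.89 to 0.25). The difference between these 2 genotype effects was not called in the interaction test (-0.58 ± 0.35, adjusted p = 0.44, interval -1.33 to 0.16). Between FVBN +Doxy and Fvbn control, Nppb had a log2 difference of 0.60 ± 0.29 (unadjusted p = 0.0578, adjusted p = 0.439), with all 4 FVBN +Doxy arrays above both control arrays after normalization. In the deposited intensities, Fvbn control array 8182 (2043) lay above FVBN +Doxy array 8337 (1991). In that comparison 0 of the 4 tested members were called, 0 at an unadjusted p below 0.05, beside 0.0403% of all probe sets called and 11.8% at that unadjusted p. It shares the FVBN +Doxy arrays with the genotype comparison under Doxy. Between tTA +Doxy and tTA the log2 difference of Nppb was 0.02 ± 0.19 (adjusted p = 0.992, interval -0.39 to 0.43), and 0 of 4 members were called there, 1 (Corin) at an unadjusted p below 0.05, beside 0.0671% of all probe sets called and 7.7% at that unadjusted p. The interaction test called 0 of 4 members, 1 (Corin) at an unadjusted p below 0.05, beside 0.0134% of all probe sets called and 14.5% at that unadjusted p.

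The call for Nppb under Doxy stood near the threshold. It held in 22 of 30 alternatives, with a log2 difference between -1.03 and -0.81. These were 10 of 11 changes of setting and 12 of 19 fits with 1 array left out. Fits without a tTA or Fvbn control array still held every array of this comparison. The call was lost without tTA +Doxy array 7399, 7485, 7486 or 7488 (adjusted p = 0.0598, 0.0593, 0.0557 and 0.0630) and without FVBN +Doxy array 8338, 8340 or 8341 (0.0539, 0.0715 and 0.0806). Of the arrays compared, only tTA +Doxy array 7424 and FVBN +Doxy array 8337 could be left out with the call kept. With all 12422 probe sets tested, adjusted p was 0.0505. Averaged over both genotype comparisons, Corin had a log2 difference of -0.59 ± 0.07 (SE, adjusted p = 1.08e-05) and Nppb one of -0.61 ± 0.18 (adjusted p = 0.0386), so that 2 of 4 members were called, both lower, beside 9.04% of all probe sets and 4.27% in the lower direction. For Nppb this average was past the threshold in 16 of 29 alternatives. It was lost with all probe sets tested (adjusted p = 0.0642) and with the beta-actin covariate (log2 difference -0.77, adjusted p = 0.129). It was also lost without either Fvbn control array (adjusted p = 0.0537 without 8177 and 0.267 without 8182) and without any of tTA +Doxy arrays 7399, 7485, 7486 and 7488, tTA arrays 7288 and 7292, and FVBN +Doxy arrays 8338, 8340 and 8341 (adjusted p between 0.0509 and 0.0699).

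Nppa, the atrial natriuretic peptide gene, differed less, and no comparison of it was called. Its intensities were 208.8, 276.2, 264.8, 287.4 and 257.4 on the tTA +Doxy arrays, against 344.4, 287.9, 298.3 and 340.0 on the FVBN +Doxy arrays. The highest of these tTA +Doxy arrays lay just below the lowest FVBN +Doxy array, so the groups did not overlap after normalization. In the deposited intensities they did overlap, with tTA +Doxy array 7486 (296.4) above FVBN +Doxy arrays 8338 (288.4) and 8340 (294.4). The 8 tTA arrays ran from 226.6 through a median of 259.0 to 417.2, against 293.6 and 290.2 on the Fvbn control arrays. The highest tTA array, 9310, stood above every other array of the 19, and the next tTA array had 279.1. The means were 258.9 ± 30.2 in tTA +Doxy, 277.0 ± 59.2 in tTA, 317.7 ± 28.7 in FVBN +Doxy and 291.9 ± 2.45 in Fvbn control (SD), and no neighbours in the order of these means differed by a called amount in the comparisons run.

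Under Doxy the log2 difference of Nppa (probe set 103593_at) was -0.30 ± 0.13 in tTA against FVBN (SE, unadjusted p = 0.0375, adjusted p = 0.2, lower on 5 of 5 arrays). It became a call without tTA array 9310 (-0.30, adjusted p = 0.0298) and without arrays 9310 and 9322 (-0.30, adjusted p = 0.0362), with the estimate nearly as before. Neither array belongs to the groups compared here. They enter through the shared normalization and the spread estimated from all groups. Without Doxy the log2 difference of Nppa was -0.10 ± 0.16 (adjusted p = 0.806, interval -0.43 to 0.23). Doxy gave -0.08 ± 0.11 in tTA (adjusted p = 0.908) and 0.12 ± 0.17 in FVBN (adjusted p = 0.799), and the interaction was -0.20 ± 0.21 (adjusted p = 0.656). On array 9310 the summed atrial markers were 427.8, and the tTA arrays, with 9310 counted, ran from 384.8 to 431.5. Only array 9322 of that group had a higher sum (431.5), with an Nppa intensity of 257.7. Of the 9 summed atrial markers, 4 were bright enough to test. The part of atrial tissue in the Nppa value of array 9310 was not tested.

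**Figure D2:**
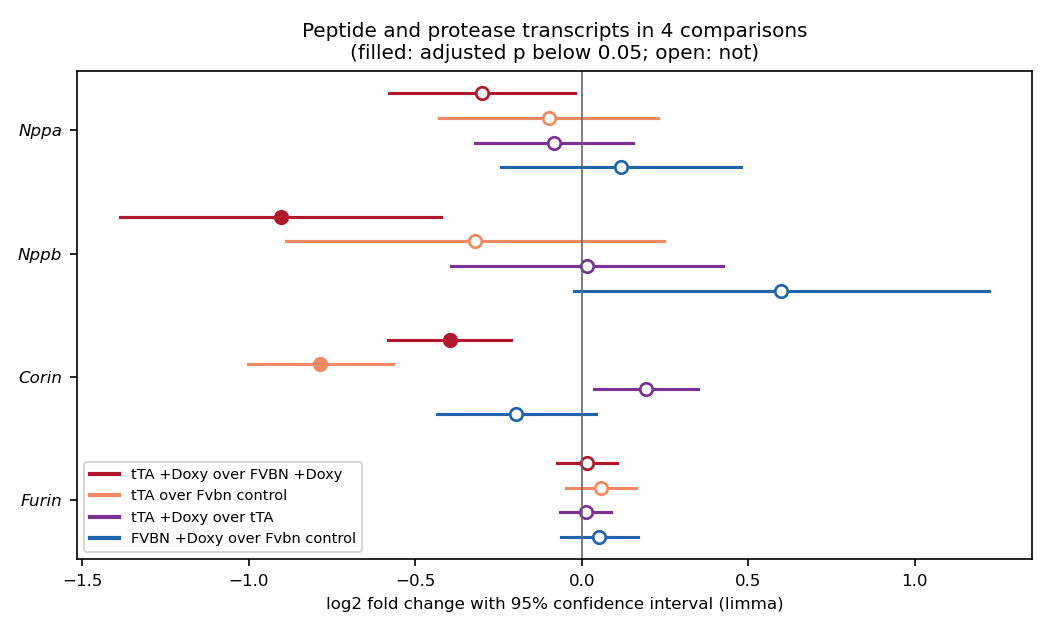
Log2 fold change of Nppa, Nppb, Corin and Furin with 95% intervals in 4 comparisons, with filled points for an adjusted p below 0.05. Corin is below 0 and called in both genotype comparisons, Nppb in the one under Doxy, and the Furin intervals all include 0.

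Furin, the convertase, was nearly level across groups and was called in none of the comparisons. Its intensities were 271.3, 270.1, 264.5, 274.8 and 265.2 on the tTA +Doxy arrays and 243.9, 269.5, 281.7 and 270.1 on the FVBN +Doxy arrays. The tTA arrays ran from 259.2 through a median of 265.3 to 281.9, against 249.0 and 263.9 on the Fvbn control arrays. The groups overlapped in each comparison run, while all tTA +Doxy arrays lay just above both Fvbn control arrays, a pair of groups that was not compared. In the deposited intensities, tTA +Doxy array 7424 (265.5) lay below Fvbn control array 8182 (266.6). The log2 difference of Furin (probe set 100515_at) was 0.06 ± 0.05 in tTA against Fvbn control (adjusted p = 0.608, interval -0.05 to 0.16). Under Doxy it was 0.02 ± 0.04 (adjusted p = 0.848, interval -0.07 to 0.11). The residual SD of Furin was 0.053 on the log2 scale, against 0.147 for Corin, 0.213 for Nppa and 0.346 for Nppb. Furin is annotated at chr7:80389194-80405441.

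Seen array by array, the extremes of the genes fell on different arrays in part. Corin was lowest on tTA array 9310 (98.4), the array where Nppa was highest. Nppb was lowest on tTA array 9322 (748.2). After subtraction of group means, Nppa and Nppb had r = 0.12 over the 19 arrays, Nppb and Corin -0.37, and Nppa and Corin -0.36, given as descriptions since the arrays share groups and normalization. Within the 8 tTA arrays, Nppa and Nppb had Pearson r = -0.000657 (exact permutation p = 0.999, two-sided) and Spearman rho = -0.12 (exact permutation p = 0.793). Without arrays 9310 and 7308, the farthest from the Nppa median, r was 0.10 and rho 0.14 (exact permutation p = 0.819 and 0.803, n = 6). This was the only relation tested, so no adjustment was made.

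**Figure D3:**
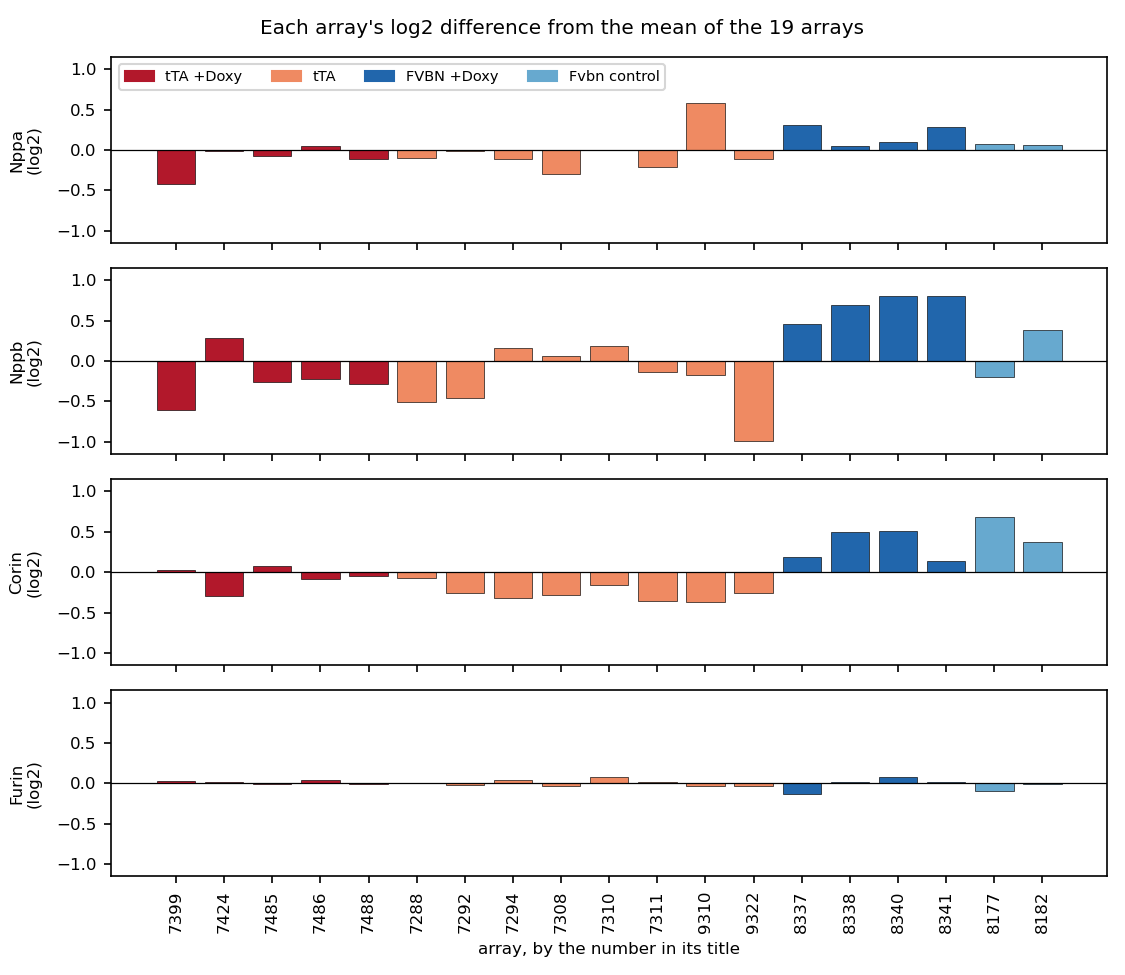
Log2 difference of each array from the mean of the 19 arrays for Nppa, Nppb, Corin and Furin, one bar per array, grouped from tTA +Doxy at the left to Fvbn control at the right. Corin bars of the wild-type arrays are all above 0, the Nppa bar of tTA array 9310 stands alone, and the Furin bars are short throughout.

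The receptor probe sets were near or below the floor of 14.4 that was set at the 10th percentile of all values. Npr1, the cGMP-making receptor (100035_at), read 11.2 to 13.0 over the 19 arrays, all at the floor after flooring, so no difference could be measured. For Npr3, the clearance receptor, probe set 160989_r_at read 11.3 to 14.1, also at the floor on all arrays. Probe sets 97711_at and 99806_at of Npr3 read 22.8 to 29.7 and 17.2 to 21.2. The 2 probe sets at the floor on all arrays could show no difference in the fit over all 12422 probe sets. In that fit, 97711_at and 99806_at were not called in any of the 4 comparisons. Their lowest unadjusted limma p was 0.0827, for 99806_at in FVBN +Doxy against Fvbn control. The share of all probe sets called there was 1.2% for genotype without Doxy, 2.29% for genotype under Doxy, 0.00805% for Doxy in FVBN and 0.0161% for Doxy in tTA. For Npr3 97711_at the log2 differences in this order were 0.04 ± 0.09, -0.09 ± 0.07, 0.12 ± 0.10 and -0.01 ± 0.06 (SE). For 99806_at they were 0.08 ± 0.07, -0.08 ± 0.06, 0.14 ± 0.07 and -0.02 ± 0.05. The receptor genes are annotated at chr3:90450591-90465928 (Npr1), chr4:43629015-43651437 (Npr2) and chr15:11839896-11907837 (Npr3).

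**Figure D4:**
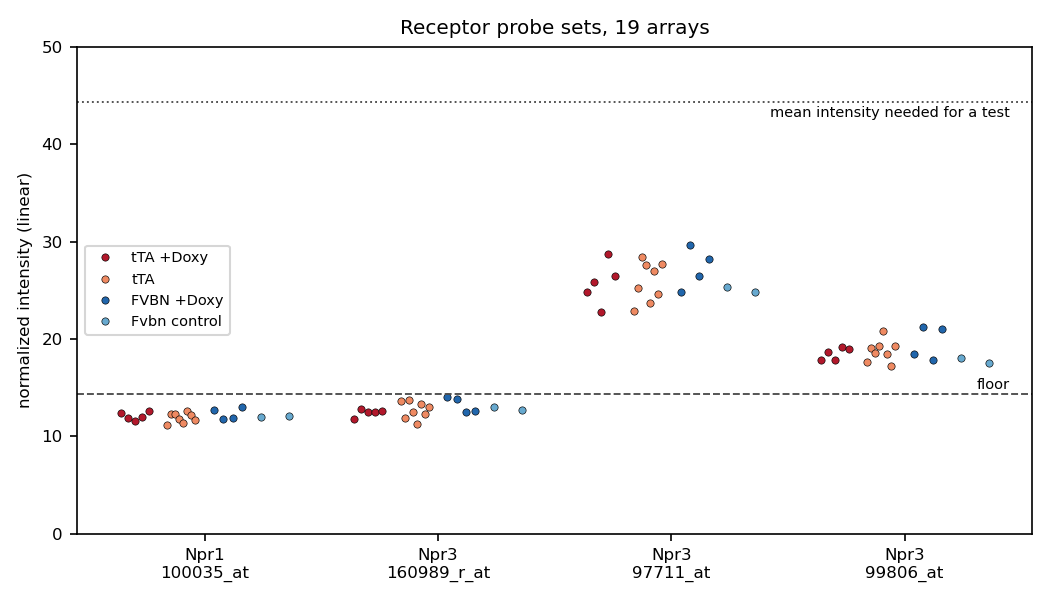
Normalized intensity (linear axis) of the 4 receptor probe sets on the 19 arrays, coloured by group, with the floor and the mean intensity needed for a test as lines. The Npr1 points and 1 set of Npr3 points lie below the floor, the other Npr3 points between the 2 lines, and the groups overlap in each probe set.

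Other genes of the pathway were taken from lists that were chosen with earlier results of these data known. Of 19 genes of cGMP signalling and peptide clearance, 11 were on the array and 3 were tested (Vasp, Ide and Nos3). 0 of these were called in the 4 comparisons, and 0 had an unadjusted p below 0.05. Their median log2 difference was 0.09 in tTA against Fvbn control and 0.03 under Doxy, where the medians of all tested probe sets were 0.01 and -0.01. Of 17 proprotein convertases, granule proteins and membrane serine proteases, 15 were on the array and 7 were tested, and 0 were called, with 0, 2, 1 and 1 at an unadjusted p below 0.05 for genotype without Doxy, genotype under Doxy, Doxy in FVBN and Doxy in tTA. Of all 7453 tested probe sets, 16.6%, 21.1%, 11.8% and 7.7% were at such an unadjusted p in that order. Called in the same order were 2.82%, 5.9%, 0.0403% and 0.0671% of them. A count of 0 calls among so few genes lies near these shares, for each list here. Cpe, a carboxypeptidase of secretory granules, had a log2 difference of 0.23 ± 0.08 in tTA against FVBN under Doxy (adjusted p = 0.0763). Of 17 transcription regulators of the peptide genes, 12 were on the array and 10 were tested, among them Gata4, Gata6, Nkx2-5 and Tead1. 0 were called, with 0, 0, 1 and 0 at an unadjusted p below 0.05 in that order of comparisons.

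Among 12 fetal and hypertrophy genes, all tested, 3 passed in each genotype comparison, 2 higher and 1 lower, beside 2.82% of all tested probe sets without Doxy and 5.9% under Doxy. Acta1, skeletal actin, rose by 1.68 ± 0.26 on the log2 scale in tTA against Fvbn control (SE, adjusted p = 0.00168) and by 0.80 ± 0.22 under Doxy (adjusted p = 0.0442). Tpm2, a tropomyosin, rose by 1.73 ± 0.16 (adjusted p = 8.54e-06) and by 1.29 ± 0.14 under Doxy (adjusted p = 4.71e-05). Acta2 fell by 1.27 ± 0.20 and by 0.66 ± 0.17 under Doxy. The median log2 difference of the 12 genes was -0.09 in both comparisons, and in the Doxy comparisons 0 were called, with 2 in each at an unadjusted p below 0.05, beside the 11.8% in FVBN and 7.7% in tTA of all tested probe sets.

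The genes whose log2 values over the 19 arrays were most like each member were ranked by Pearson r among tested probe sets linked to 1 gene. For Corin these were Ldhb, a lactate dehydrogenase subunit (r = 0.92), Nsmce1 (0.91) and Ces1d, a carboxylesterase (0.90), and after subtraction of group means r was 0.63, 0.48 and 0.65. For Nppb they were Upp1, a uridine phosphorylase (0.85), Dlg3 (0.81) and Rbpms, an RNA-binding protein (0.80), with 0.62, 0.67 and 0.50 after subtraction. For Nppa they were H2-M9 (0.79), Cox18 (0.78) and Mettl8 (0.78), with 0.73, 0.72 and 0.80 after subtraction. These are descriptions over arrays that share groups and normalization, with no test.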

How the data were processed

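Total RNA from mouse ventricle was measured on Affymetrix arrays, and the deposited values are probe-set intensities on a linear scale. How the authors derived these intensities is not given in the sources used here, and the deposited array medians lay between 60.74 and 62.45. The table held 20 arrays and 12488 probe sets. The 19 arrays with a group in their titles were used, without the 66 control probe sets. Of the remaining 12422, 10833 were linked to 1 gene, 396 to several and 1193 to none, by the platform annotation.

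Intensities were quantile normalized over the 19 arrays, raised to a floor of 14.4 (their 10th percentile) and taken to log2. The brightest 60% by mean over all arrays were fitted with 4 group means in limma 3.58.1 (R 4.3.3; trended, robust eBayes), with Benjamini-Hochberg adjustment over the probe sets tested. The procedure was tested on simulated data. Probe sets of the members were named in every comparison, called list genes by their size (at most 4 per comparison), and like genes by the 3 highest r. Members and lists were chosen with earlier results of these data known. Alternatives changed the scaling, floor, filter, arrays, weights and the use of the beta-actin ratio as a covariate. Promoter windows are RefSeq, GRCm38.p6. Levels were not compared between probe sets.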

Additional observations from a re-analysis of the deposited data

Results flagged for a closer look

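The Nppa intensity of tTA array 9310 was 417.2, while the other tTA arrays lay between 226.6 and 279.1. It stood far from the nearest of the others for a group of 8 arrays by Dixon's test at the 95% level. Of 18 groups of member values tested, 1 held such an array, and chance gives about 1 in 20. On the same array Corin was at 98.4, the lowest of the 19.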

How the results depend on the processing

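Corin in tTA against Fvbn control held under each of 30 alternatives, and under Doxy in 29. The number of probe sets called was less stable. For tTA against Fvbn control it was 210, and 26 once the beta-actin ratio entered as a covariate, 54 to 242 with 1 array left out (54 without Fvbn control array 8177, 63 without 8182). For tTA +Doxy against FVBN +Doxy it was 440, and 284 with all probe sets, 700 with array weights and 240 to 493 with 1 array left out (272 and 271 when tTA +Doxy array 7485 or 7488 was dropped, 271 and 240 when FVBN +Doxy array 8337 or 8341 was). For FVBN +Doxy against Fvbn control it was 3, and 1 with all probe sets, 5 with only the arrays compared, 8 without tTA arrays 9310 and 9322 and 1 to 7 with 1 array left out (1 without FVBN +Doxy array 8338 or 8340 or Fvbn control array 8177, 7 without tTA array 9322). For tTA +Doxy against tTA it was 5, and 10 with median scaling, 11 without further normalization, 2 with all probe sets, 11 with array weights, 3 without tTA arrays 9310 and 9322 and 3 to 25 with 1 array left out (3 without tTA +Doxy array 7399, 9 and 25 without tTA array 7288 or 7294). For the interaction it was 1, and 6 with median scaling, 6 without further normalization, 0 with all probe sets, 5 with the brightest 40%, 4 without tTA arrays 9310 and 9322 and 0 to 4 with 1 array left out (2 without tTA +Doxy array 7424, 4 and 3 without tTA array 7311 or 9322, 3 without FVBN +Doxy array 8340, 0 without Fvbn control array 8177). For the mean genotype effect it was 674, and 208 with the beta-actin covariate and 340 to 708 with 1 array left out (340 without either Fvbn control array). The cause of these changes was not tested, beyond the fewer arrays or other probe sets that enter by construction.

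The log2 differences that changed sign were not called under any setting. For Furin these were -7.5e-05 in FVBN +Doxy against Fvbn control with median scaling, 0.0378 in the interaction with median scaling and 0.0166 without further normalization, -0.0014 in tTA +Doxy against FVBN +Doxy with array weights, and -0.0011 in tTA +Doxy against tTA without arrays 9310 and 9322. With 1 array left out, Furin ran from -0.0825 to 0.00087 in the interaction and from -0.0242 to 0.0450 in tTA +Doxy against FVBN +Doxy. In tTA +Doxy against tTA without arrays 9310 and 9322, Nppa was 0.0073 and Nppb -0.10, and with 1 array left out Nppa ran from -0.12 to 0.0060 and Nppb from -0.11 to 0.11. The correlation of Nppa with Nppb in tTA ran from -0.157 to 0.131 with 1 array left out.

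No paired analysis was possible because no number in the titles is shared by 2 groups. With 2 Fvbn control arrays, comparisons against them rest on the spread shared by all groups, and intensities near the floor give no differences for Npr1 and for 1 probe set of Npr3.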

Other observations

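One array, titled as cardiac tTA expression, carries no group in its labels and entered no comparison. When all 20 arrays were normalized together it read 333.6 for Nppa, 1284 for Nppb, 167.9 for Corin and 247.1 for Furin. On the same scale Corin was 98.4 to 121.2 on the 8 tTA arrays and 164.6 to 203.8 on the Fvbn control arrays. Nppa was 226.4 to 416.9 on the tTA arrays and 290.0 to 293.4 on the Fvbn control arrays. Nppb was 748.1 to 1691 and 1291 to 1933 in the same order. The Furin value of the array without a group lay below the lowest tTA array (259.1) and the lowest Fvbn control array (248.9). Its Npr1 value was 12.1.

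Nppc, the gene of C-type natriuretic peptide, which acts on Npr2, was too dim to test. Its intensities were 28.8 to 37.2 on the 19 arrays. In the fit over all probe sets its log2 difference was 0.18 ± 0.06 in FVBN +Doxy against Fvbn control (SE, limma adjusted p = 0.415). These groups did not overlap, but the lowest FVBN +Doxy array (32.16) stood barely above the higher Fvbn control array (32.13). In tTA against Fvbn control the log2 difference of Nppc was 0.11 ± 0.06 (adjusted p = 0.445). Agtrap, which encodes an angiotensin receptor-associated protein and lies within 100 kb of Nppa and Nppb, had a log2 difference of 0.33 ± 0.08 in tTA +Doxy against FVBN +Doxy (SE, limma adjusted p = 0.0151) and 0.15 in tTA against Fvbn control (adjusted p = 0.448). This window was chosen after values of these data had been seen.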
